A study of Mus musculus with 4 samples.

Results

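Fatty acid oxidation and gluconeogenesis were followed through 30 genes of the mouse kidney, taken as a list of symbols from the 27998 genes of the deposited count matrices. Each of the 30 symbols matched 1 row in all 4 matrices. The genes were read by library and by tubule segment, where a segment is a set of cells gated on marker genes that include none of the 30. The list was drawn up with earlier results of these data known.

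All cells came from kidneys of BAC-CluGFP mice, a transgenic line in which a bacterial artificial chromosome ties green fluorescent protein (GFP) to Clu, the gene of the secreted chaperone clusterin. Per the labels, digested kidney cells were sorted by flow cytometry for GFP and read by droplet 3′ single-cell RNA sequencing. The 4 groups were kidneys with no treatment, and kidneys harvested on day 2 (48 hours), day 7 or day 30 of recovery from 35 min of ischemia-reperfusion injury (IRI), with 1 library per group. The sources used here do not give the number, age or sex of the animals, and no sham-operated group is among the samples. A single library stands for each group, so replicate spread is unknown, differences were not tested, and every interval below is an exact 95% interval that covers counting error only. Per the labels the sorted cells were GFP-positive, so a group is not a sample of the whole kidney. Fewer cells of a kind among them and a changed sort cannot be told apart.

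The libraries held 1930 to 9286 barcodes and 49397016 to 98818914 unique molecular identifiers (UMIs, each counted as 1 captured RNA molecule). After filtering, 6546, 8988, 1930 and 6946 cells remained in time order. The untreated library stood apart in its mitochondrial share, with a median of 14.5% of UMIs per kept cell against 2.87 to 3.75% in the others, and it lost 2740 barcodes to the limit of 50%. The day 7 library stood apart in depth, with no barcode under 18362 UMIs. Pairs of libraries shared 4 to 20 barcode sequences. Cells gated as proximal tubule-like numbered 2772, 91, 547 and 579 in that order, with a median of 4022, 11259, 25688 and 11367 UMIs per cell. The 18 transport markers of the proximal tubule summed to 11090, 10760, 3058 and 5083 UMIs per 1000000 (CPM) in these cells, and the 7 injury markers to 27.2, 127, 2954 and 1705. Clu itself was at 18.9, 139, 492 and 344 CPM in these cells, against 1490 in untreated distal convoluted and connecting tubule cells, so the RNA of the reporter's source gene was low in the untreated proximal tubule cells.

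Fatty acid oxidation shortens fatty acids by cycles of dehydrogenation, hydration, dehydrogenation and thiolytic cleavage in the mitochondrial matrix, after the carnitine shuttle has carried the acyl chain across the inner membrane. Peroxisomes shorten very long and branched chains, and cytochrome P450 enzymes of the Cyp4a family start oxidation from the far end of the chain. The proximal tubule relies on this oxidation for the energy of solute transport, and it is the kidney's site of glucose production, which runs through the phosphoenolpyruvate carboxykinase Pck1, the bisphosphatase Fbp1 and the glucose 6-phosphatase G6pc. The nuclear receptor PPARα (Ppara) and its coactivator PGC-1α (Ppargc1a) drive many of these genes.

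Of the 30 genes, 26 had an entry in a RefSeq table of promoters (build GRCm38.p6), read here as the 250 bases before the listed start. The hexamer AGGTCA, which nuclear receptors such as PPARα bind, was searched on both strands and was present in 8 of the 26 (Acadm, Acadvl, Acot12, Cpt1a, G6pc, Gatm, Miox and Slc27a2), against 14% of all 32851 promoter windows. Its spaced repeat AGGTCANAGGTCA was in 0 of the 26 and in 0.0335% of all windows. The TATA box TATAAA was in 3 (Acsm2, G6pc and Miox), against 12.4% of all. A match describes these letters only. In proximal tubule cells 7 measured genes stayed within 2-fold of untreated at all 3 times after IRI. Of these, Cpt1a and Slc27a2 hold the hexamer, and Ppargc1a, Acadl, Hadha, Hadhb and Etfdh do not. Another 6 genes were lower at all 3 times. Acot12 and Miox of these hold the hexamer, Acaa1b, Pck1 and Khk hold neither motif, and Cyp4a10 has no promoter entry. The remaining hexamer genes, Acadm, Acadvl, G6pc and Gatm, were lower at day 7. A link between motif and level was not tested. The windows of 3 genes are printed 5′ to 3′, because in proximal tubule cells Hadhb stayed within 2-fold of untreated after IRI, in contrast with G6pc and Miox, which were 17.7-fold and 15.1-fold lower at day 7. Capitals mark AGGTCA (read as TGACCT on the opposite strand) and TATAAA, and the coordinates are chr5:30155003-30155252, chr11:101367466-101367715 and chr15:89334223-89334472, all on the plus strand:
Hadhb: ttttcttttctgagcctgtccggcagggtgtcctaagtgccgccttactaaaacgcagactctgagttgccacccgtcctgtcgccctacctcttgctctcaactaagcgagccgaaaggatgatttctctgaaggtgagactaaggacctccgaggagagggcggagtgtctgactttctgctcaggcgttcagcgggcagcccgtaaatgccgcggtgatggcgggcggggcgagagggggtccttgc
G6pc: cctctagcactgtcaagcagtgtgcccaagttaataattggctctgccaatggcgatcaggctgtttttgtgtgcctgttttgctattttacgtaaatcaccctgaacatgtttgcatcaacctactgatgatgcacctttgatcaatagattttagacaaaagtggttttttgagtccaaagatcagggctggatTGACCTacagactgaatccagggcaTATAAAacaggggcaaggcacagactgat
Miox: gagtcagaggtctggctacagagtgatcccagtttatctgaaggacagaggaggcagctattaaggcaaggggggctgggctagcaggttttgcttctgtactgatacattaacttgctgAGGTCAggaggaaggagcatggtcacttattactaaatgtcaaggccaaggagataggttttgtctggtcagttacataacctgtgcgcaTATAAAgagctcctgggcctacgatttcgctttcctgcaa
In the G6pc window the hexamer lay 54 bases and the TATA box 29 bases before the start, and in the Miox window 130 and 40 bases. The Hadhb window held neither motif. Hadha, which encodes the other subunit of the mitochondrial trifunctional protein, is transcribed the other way from a RefSeq start 273 bases off. GENCODE starts these genes further upstream than RefSeq does, so 160 bases of the Hadhb window lie inside its Hadha and 5 inside its Hadhb, and 155 and 75 bases of the G6pc and Miox windows lie inside those genes.

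Proximal tubule cells carried the 30 genes at 1.575% of their UMIs before injury and at 1.13, 0.361 and 0.568% on days 2, 7 and 30. A gene was counted as measured with at least 20 CPM in either library and 20 UMIs in both together, and as higher or lower when the levels differed at least 2-fold and the interval of the ratio excluded 1. At day 2, 8 of 28 measured genes were lower and 2 were higher, where 3.99% of all measured genes were lower and 15.4% higher. At day 7, 19 of 27 were lower and 0 higher, against 9.4% and 35.7% of all measured genes. At day 30, 15 of 28 were lower and 0 higher, against 6.52% and 31.5%. The median log2 ratio, with 10 CPM added to both levels, was -0.51, -1.40 and -1.08 over the measured genes of the set and 0.28, 0.55 and 0.49 over all measured genes. The 3 comparisons share the untreated library. With the median over all measured genes set to no change, 12, 24 and 19 genes of the set were lower and 0 higher at days 2, 7 and 30, and the share of all measured genes called lower was 8.29, 18.1 and 15.6%. With all cells added whose best marker list was a proximal one but which passed no gate (195, 132, 390 and 937 cells), 17, 21 and 21 were lower and 1, 0 and 0 higher, against 7.77, 9.96 and 9.88% of all measured genes lower and 26.1, 37.6 and 40.3% higher. Mitochondrially encoded RNA made up 22.6, 15.2, 5.37 and 8.55% of the UMIs of the gated cells in time order. Without it in the totals, 9, 20 and 16 genes were lower and 2, 0 and 0 higher, against 5.11, 12.5 and 9.2% lower and 12.6, 24.3 and 22.3% higher of all.

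**Figure D1:**
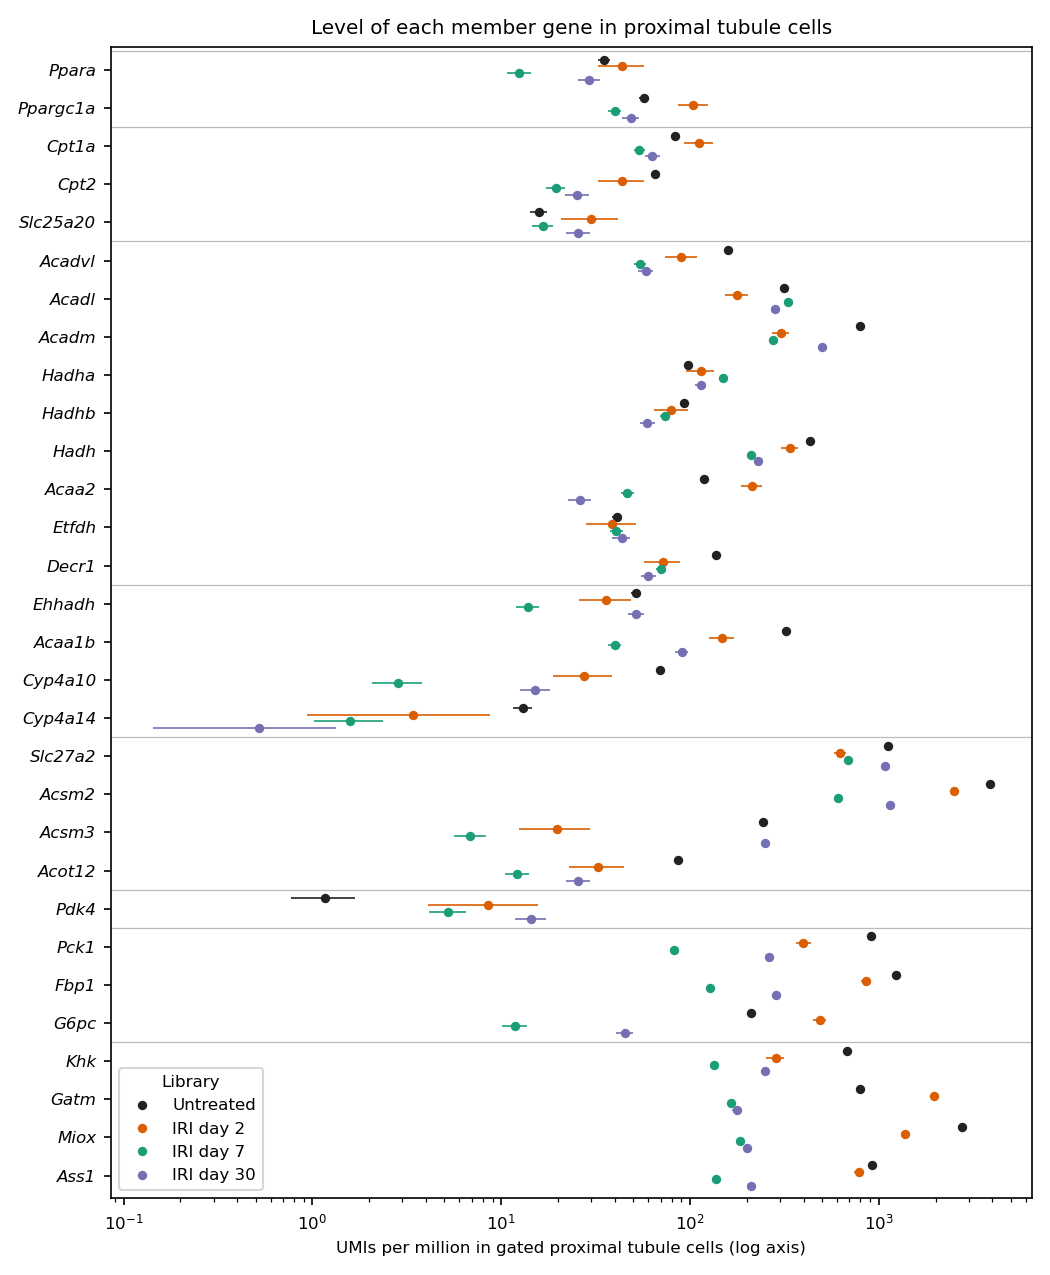
Level of each of the 30 genes in gated proximal tubule cells, in CPM on a log axis, with 1 point per library and exact 95% Poisson intervals. Pck1, Fbp1, G6pc, Miox and Ass1 had their lowest point at day 7, and the points of Acadl, Hadha and Etfdh all lie within 2-fold of untreated.

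**Figure D2:**
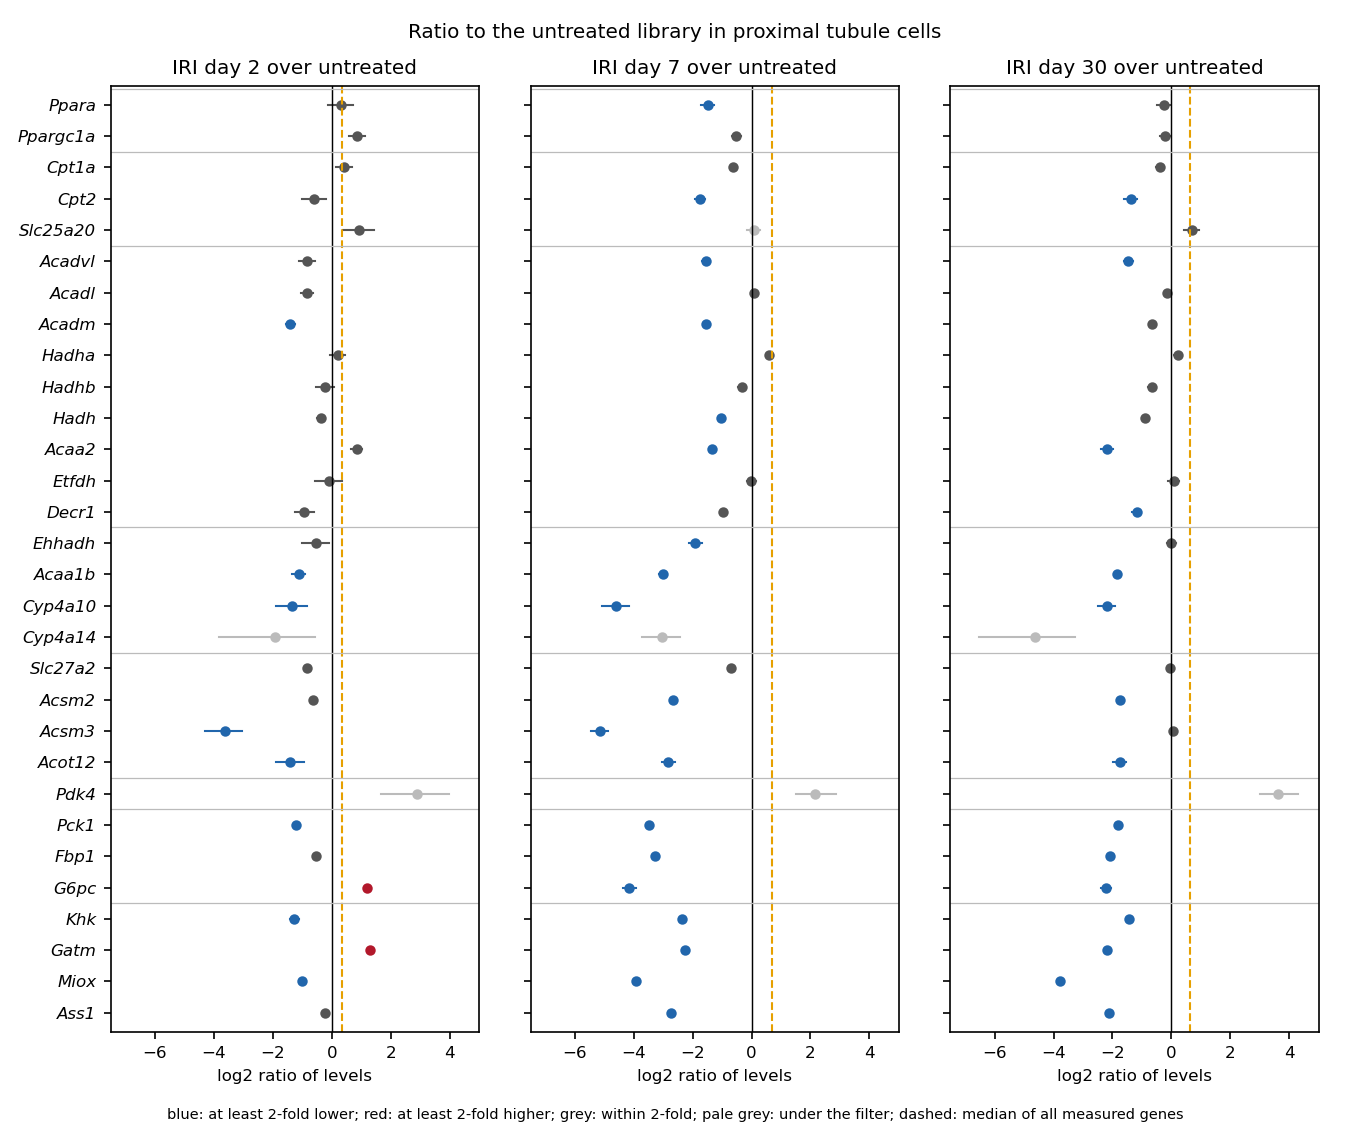
Log2 ratio of each gene's level to the untreated library in proximal tubule cells, 1 panel per time after IRI, with exact 95% intervals. The dashed line is the median over all measured genes (0.35, 0.70 and 0.63), and pale grey marks genes under the filter.

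The 3 glucose-producing enzymes had the lowest median log2 ratio of all role groups at day 7, -3.32. All 3 were lower at days 7 and 30, against 9.4 and 6.52% of all measured genes. Among early-marker cells (below), 1 of 3 was lower at each of these times, against 2.84 and 3.73% of all measured genes. The median log2 ratios there were -0.94 and -0.77. Of the 547 gated cells at day 7, 465 were injury-marker cells (below), so the values that follow pool unlike cells. Pck1 (chr2:173153048-173159273, mm10), which makes phosphoenolpyruvate, was at 915 CPM before injury and 399.5, 82.6 and 263.5 CPM on days 2, 7 and 30. Its level was lower by 2.29-fold (2.09 to 2.52), 11.1-fold (10.5 to 11.7) and 3.47-fold (3.32 to 3.64) on those days. Fbp1, which removes a phosphate from fructose 1,6-bisphosphate, was at 1230, 855, 127 and 287 in the same order. It fell 9.66-fold (9.22 to 10.1) at day 7 and 4.28-fold (4.10 to 4.48) at day 30, while its day 2 level was within 2-fold of untreated. G6pc (chr11:101367561-101377903), which releases free glucose, took another course, with 209.5 CPM before injury and 486, 11.8 and 45.1 CPM on days 2, 7 and 30. Its level was 2.32-fold higher (2.12 to 2.53) at day 2, then 17.7-fold (15.2 to 20.7) and 4.64-fold (4.16 to 5.20) lower. The day 2 rise rests on 91 cells. With the 132 cells added that had a proximal list on top but passed no gate, the day 2 ratio was 0.951, and among early-marker cells (below) it was 1.96.

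Over all gated cells, the genes of fructose, inositol, arginine and creatine use were lower at the later times. The counts were 4 of 4 at day 7 and 4 of 4 at day 30. Of all measured genes, 9.4 and 6.52% were lower at those times. Among early-marker cells (below), 2 of 4 were lower at each time, against 2.84 and 3.73% of all measured genes. The median log2 ratios there were -0.88 and -0.85, against -2.46 and -2.095 over all gated cells. Miox (chr15:89334398-89337015), the oxygenase that opens the inositol ring and is known for its restriction to kidney tubules, was at 2771 CPM before injury and 1384, 184 and 200.5 CPM on days 2, 7 and 30. It was 15.1-fold lower (14.5 to 15.6) at day 7 and 13.8-fold (13.1 to 14.5) at day 30, so its last 2 libraries lay close together. Khk, the fructokinase, was at 682, 284, 134 and 250, and fell at every time, by 5.08-fold (4.85 to 5.32) at day 7. Ass1, argininosuccinate synthase of the arginine pathway, was at 922, 786, 138 and 210, and was lower at day 7 and day 30 but not at day 2. Gatm (chr2:122594467-122611303), which makes the creatine precursor guanidinoacetate, was at 797, 1964, 165 and 177. It was 2.46-fold higher (2.36 to 2.57) at day 2 and 4.82-fold (4.62 to 5.03) and 4.51-fold (4.26 to 4.76) lower at days 7 and 30. Gatm is an early-segment gene, and 84 of the 91 day 2 cells had early markers against 1412 of the 2772 untreated cells. Among early-marker cells Gatm went from 1315 to 2076 at day 2, a ratio of 1.58 (1.51 to 1.65) that did not reach 2-fold. Its level in those cells at day 7 was 862 CPM, within 2-fold of untreated.

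In the mitochondrial cycle the losses were smaller and uneven, with 1, 4 and 3 of 9 measured genes lower at days 2, 7 and 30, and 0 higher at any of them. Of all measured genes, 3.99, 9.4 and 6.52% were lower on those days and 15.4, 35.7 and 31.5% higher. Among early-marker cells (below), 0, 0 and 2 of 9 were lower, against 3.15, 2.84 and 3.73% of all measured genes. The acyl-CoA dehydrogenases, which take the first step for different chain lengths, did not move together. Acadm (medium chains) was at 799 CPM before injury and 302, 276 and 502 CPM on days 2, 7 and 30, and was lower at days 2 and 7, by 2.65-fold (2.38 to 2.95) and 2.90-fold (2.80 to 3.00). Before injury it was higher in late-marker than in early-marker cells (1315 against 518 CPM). Late-marker cells numbered 608 of 2772 untreated, 2 of 91 at day 2 and 3 of 547 at day 7. Among early-marker cells Acadm was at 374 CPM at day 7, within 2-fold of untreated. Acadvl (very long chains) was at 160, 89.8, 54.4 and 58.2, and was lower at days 7 and 30, by 2.94-fold (2.73 to 3.17) and 2.75-fold (2.49 to 3.04). Acadl (long chains) was at 314, 177, 329 and 284, with ratios of 1.05 (1.01 to 1.09) at day 7 and a 1.10-fold (1.05 to 1.16) lower level at day 30. Hadha and Hadhb, which lie head to head, also stayed within 2-fold: Hadha was at 98.2, 114, 149 and 114, and Hadhb at 93.5, 79.6, 73.9 and 59.5. Etfdh, which passes the electrons on to ubiquinone, held at 41.1, 38.5, 40.7 and 43.4. Hadh, the short-chain hydroxyacyl-CoA dehydrogenase, was at 433, 337, 210 and 230 and was lower at day 7 by 2.06-fold (1.98 to 2.15). Acaa2, the thiolase, was at 118, 213, 46.7 and 26.0, and was lower at days 7 and 30, while the auxiliary reductase Decr1 was at 137, 71.9, 70.3 and 60.1 and was lower at day 30.

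Of the measured genes of the carnitine shuttle and the regulators together, 0 of 5 were lower at day 2, 2 of 4 at day 7 and 1 of 5 at day 30, and 0 were higher. Of all measured genes, 3.99, 9.4 and 6.52% were lower on those days and 15.4, 35.7 and 31.5% higher. Cpt1a, the outer-membrane transferase and the regulated entry step, was at 83.0 CPM before injury and 111, 54.0 and 63.3 CPM on days 2, 7 and 30, within 2-fold at each. Cpt2, its inner-membrane partner, was at 65.5, 43.6, 19.5 and 25.2 and fell 3.36-fold (2.96 to 3.82) at day 7 and 2.60-fold (2.23 to 3.03) at day 30. The carrier Slc25a20 was at 15.8, 29.9, 16.6 and 25.6, below the filter at day 7 and within 2-fold otherwise. Ppargc1a was at 57.0, 104, 39.9 and 48.8, with a day 2 ratio of 1.83 (1.51 to 2.21) that did not reach 2-fold. Ppara was at 35.0, 43.6, 12.4 and 29.2, and was lower at day 7 alone of the 3 times, by 2.82-fold (2.40 to 3.32). Among early-marker cells (below), Ppara was at 38.6 CPM untreated and 35.2 at day 7. There 0 of 2 regulators were lower at each time, and 0, 1 and 1 of 3 shuttle genes on days 2, 7 and 30. Of all measured genes in early-marker cells, 3.15, 2.84 and 3.73% were lower. The 1 shuttle gene higher there was at day 30, against 19.6% of all measured genes.

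Peroxisomal and omega-oxidation genes were lower in 2 of 3 measured at day 2, 3 of 3 at day 7 and 2 of 3 at day 30. Of all measured genes, 3.99, 9.4 and 6.52% were lower. Among early-marker cells 0, 2 and 2 of 3 were lower on those days, against 3.15, 2.84 and 3.73% of all measured genes. Ehhadh, Cyp4a10 and Cyp4a14 are higher in untreated late-marker cells (below), which numbered 2 of the 91 cells at day 2 and 3 of the 547 at day 7. Acaa1b, a peroxisomal thiolase, was at 322 CPM before injury and 148, 39.9 and 90.5 CPM on days 2, 7 and 30, and fell 8.06-fold (7.42 to 8.78) at day 7. Cyp4a10 was at 69.2, 27.4, 2.84 and 15.2, a fall of 24.3-fold (18.0 to 33.8) at day 7. Its neighbour Cyp4a14, 22121 bases away on chromosome 4, was at 13.0, 3.42, 1.59 and 0.523 and did not pass the filter. Ehhadh, the peroxisomal bifunctional enzyme, was at 51.8, 35.9, 13.8 and 51.9, lower at day 7 and level with untreated at day 30 (ratio 1.00, 0.891 to 1.12). Acaa1b and the Cyp4a genes have near-identical relatives, so how reads were split among them is uncertain.

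Enzymes that activate or release acyl groups were lower in 2 of 4 at day 2, 3 of 4 at day 7 and 2 of 4 at day 30, against 3.99, 9.4 and 6.52% of all measured genes. They included the gene of the set with the most UMIs. Acsm2 (chr7:119554340-119600690), a medium-chain acyl-CoA synthetase, was at 3867 CPM before injury and 2506, 606 and 1141 CPM on days 2, 7 and 30, and fell 6.38-fold (6.24 to 6.52) and 3.39-fold (3.31 to 3.46) at the last 2 times. Acsm3 (chr7:119760923-119787513), 160232 bases from it, was at 243, 19.7, 6.88 and 250. It was 12.3-fold (8.22 to 19.5) and 35.4-fold (29.1 to 43.3) lower at days 2 and 7, and at day 30 its ratio was 1.03 (0.975 to 1.08). Cells with late-segment markers, in which Acsm3 is high, numbered 608 of 2772 untreated and 2 of 91, 3 of 547 and 133 of 579 on days 2, 7 and 30. The day 30 value pools a ratio of 0.176 in early-marker and 2.52 in late-marker cells, described below. Reads of Acsm relatives may also be split. Slc27a2, a very-long-chain acyl-CoA synthetase and fatty acid transporter, was at 1122, 625, 690 and 1083, within 2-fold throughout. Acot12, an acetyl-CoA hydrolase, was at 86.0, 32.5, 12.2 and 25.6 and was lower at every time. Pdk4, the kinase that shuts pyruvate out of oxidation, was below the filter at all times, at 1.16, 8.55, 5.22 and 14.4, so its higher levels after IRI were not counted.

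Between the injured libraries themselves, 8 of 27 measured genes were higher at day 30 than at day 7 and 0 lower, where 3.35% and 1.31% of all measured genes were. They were Ppara, Ehhadh, Acaa1b, Acsm3, Acot12, Pck1, Fbp1 and G6pc, led by Acsm3 at 36.3-fold (29.8 to 44.7). The cells differed in make-up: 3 of 547 had late-segment markers at day 7 and 133 of 579 at day 30, and 82 and 269 passed the transport gate. Among early-marker cells Acsm3 went from 6.95 to 19.4 CPM, and among transport-marker cells Pck1 went from 501 to 576. Gatm and Miox were not among them, with ratios of 1.07 (1.00 to 1.14) and 1.09 (1.02 to 1.16). Against day 2, 1 of 28 was higher at day 30 and 8 were lower, where 14.5% and 6.75% of all measured genes were. Acsm3 was the higher one, and the lower ones were Ppargc1a, Acaa2, Acsm2, Fbp1, G6pc, Gatm, Miox and Ass1.

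The day 7 and day 30 proximal tubule cells held 2 populations, one gated on transport markers (82 and 269 cells) and one on injury markers (465 and 310 cells), while the untreated and day 2 libraries held 3 and 1 injury-marker cells. A cell went to the population whose marker list scored higher. Genes that vary together with the transport markers are therefore lower in injury-marker cells in part by this choice. The 30 genes made up 0.903% of UMIs in transport-marker cells and 0.268% in injury-marker cells at day 7, and 1.01% and 0.238% at day 30. At day 7, 13 of 26 measured genes were lower in injury-marker cells and 0 higher, where 7.16% and 10.6% of all measured genes were. At day 30, 19 of 29 were lower and 0 higher, against 7.63% and 14.3%. The 12 genes lower in both libraries were Ppara, Ehhadh, Acaa1b, Acot12, Acsm2, Pck1, Fbp1, G6pc, Khk, Gatm, Miox and Ass1, which is 92.3% of the day 7 genes and 63.2% of the day 30 genes. Over all genes, 322 were lower in both, 66.3% and 60.0% of those lower at each time.

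All 3 glucose-producing enzymes were far lower in injury-marker cells. At day 7 Pck1 was at 501 CPM in transport-marker cells and 10.2 in injury-marker cells, a 48.9-fold (40.8 to 59.1) difference, and G6pc at 75.8 and 0.776. Pericytes and fibroblasts of that library had 8.33 (4.30 to 14.55) of Pck1 and 1.39 (0.168 to 5.01) of G6pc, so these injury-marker levels are no higher than outside the tubule. Fbp1 and Miox were above it, at 25.4 against 7.63 and 31.9 against 6.94. The part of free RNA in the low levels was not tested. At day 30 Pck1 was at 576 and 32.5, Fbp1 at 633 and 31.6, and G6pc at 101 and 3.86. Miox differed as widely, at 1065 and 31.9 on day 7 and 460 and 8.87 on day 30. Cyp4a14, under the filter, had 0 UMIs in injury-marker cells at both times, against 24 UMIs in transport-marker cells at day 7 and 4 at day 30. With 3 counts as the floor over the gated cells it was at least 46.3-fold lower at day 7 and at least 1.80-fold at day 30. By contrast Acadl was at 248 and 343 at day 7 and 269 and 295 at day 30, Hadha at 132 and 152 and then 91.4 and 131, and Hadhb at 86.1 and 71.7 and then 55.1 and 62.7. Acsm3 separated the populations at day 30, with 575 and 9.77, a 58.8-fold (43.5 to 81.5) difference, but was at 11.7 and 6.05 at day 7. Restricted to transport-marker cells, 9 of 28 genes were lower than untreated at day 7 and 0 higher, against 3.52% and 16.6% of all measured genes. At day 30, 7 of 29 were lower and 4 higher, against 2.97% and 15.9%, so the share of the set that was higher was near that of all genes. Gatm was then at a ratio of 1.02 at day 7.

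**Figure D3:**
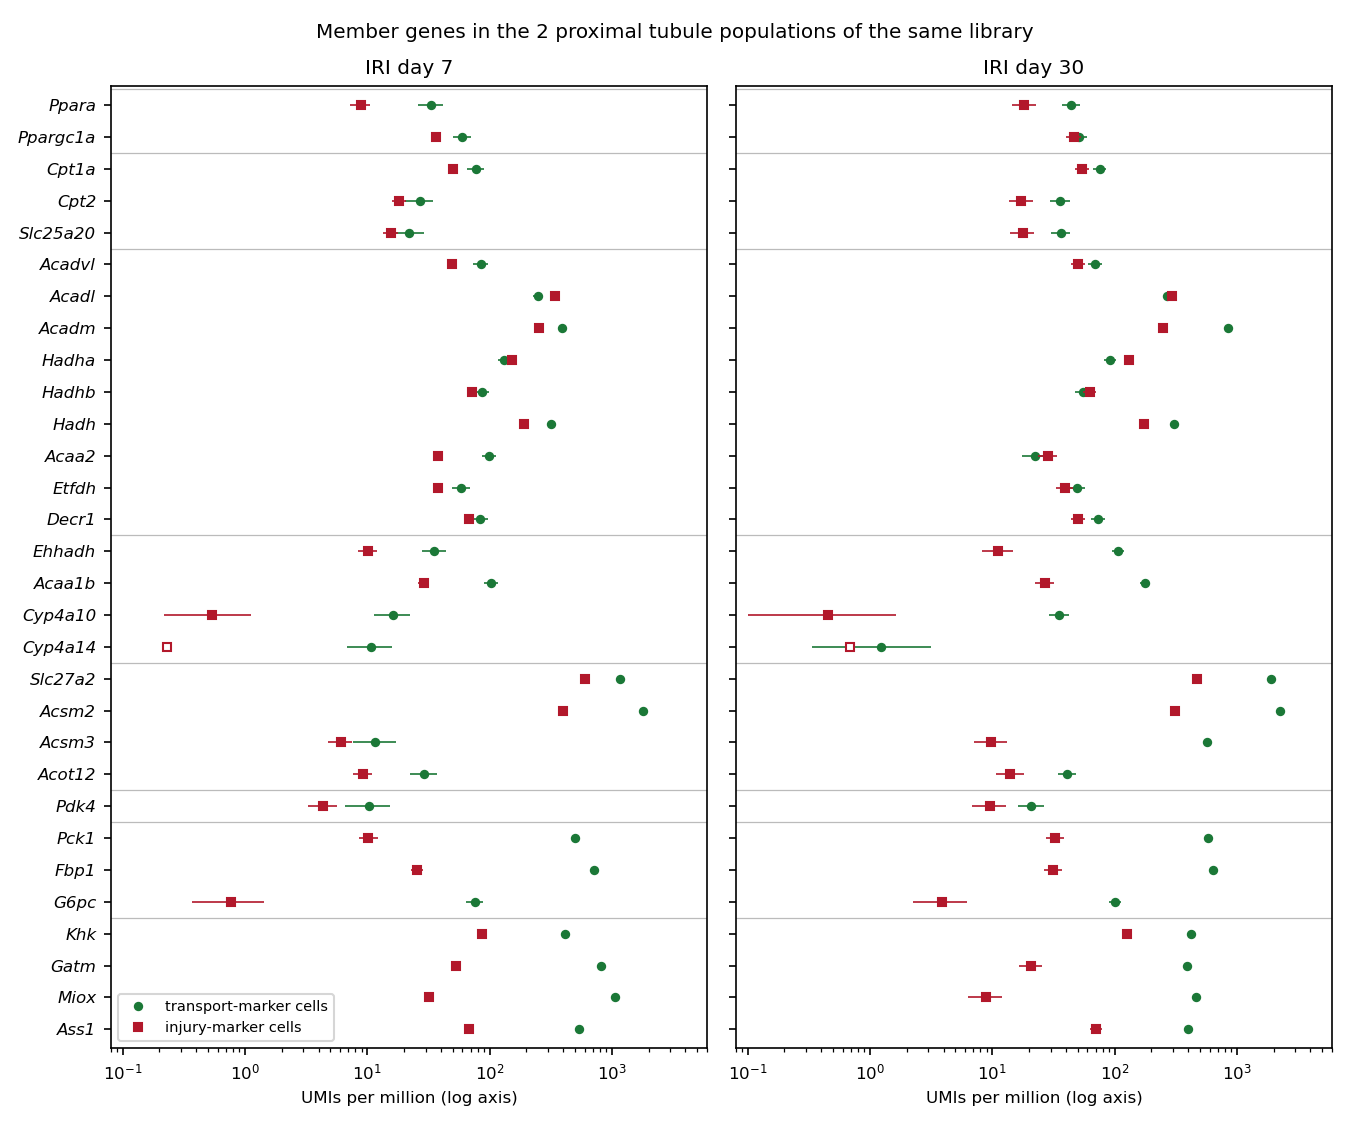
Level of each gene in transport-marker and injury-marker proximal tubule cells of the day 7 and day 30 libraries, in CPM on a log axis, with exact 95% intervals. Open squares stand for 0 UMIs drawn at the floor of 3 counts. The pairs for Pck1, Fbp1, G6pc, Gatm and Miox are far apart, and those for Acadl, Hadha and Hadhb lie close.

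Position along the proximal tubule set a pattern of its own. In the untreated library 1412 cells had early-segment and 608 late-segment markers. Of 28 measured genes, 3 were higher in early cells (Acaa2, Gatm and Ass1) and 6 lower (Acadm, Ehhadh, Cyp4a10, Cyp4a14, Slc27a2 and Acsm3), where 3.85% and 3% of all measured genes were. Gatm was at 1315 CPM in early and 156.5 in late cells, 8.40-fold (7.89 to 8.96) apart, and Acadm at 518 and 1315, 2.54-fold (2.46 to 2.63) apart the other way. At day 30, with 106 early and 133 late cells, 6 of 29 were higher in early cells and 5 lower, against 5.31% and 4.11%. The early-high genes then were Ppargc1a, Acaa2, G6pc, Gatm, Miox and Ass1, and the late-high ones Acadm, Ehhadh, Cyp4a10, Slc27a2 and Acsm3.

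Within early-marker cells, 5 of 28 measured genes were lower than untreated at day 2 and 0 higher (3.15% and 14.1% of all genes), 8 of 28 lower and 0 higher at day 7 (2.84% and 15.1%), and 10 of 28 lower and 1 higher at day 30 (3.73% and 19.6%). Miox led the abundant ones, at 3524 CPM untreated and 1376, 1117 and 658 after IRI. Pck1 was at 906, 389, 467 and 528, lower only at day 2. The gene higher at day 30 was Slc25a20, at 14.2 untreated and 40.4, a ratio of 2.85 (2.03 to 3.95). Late-marker cells could be compared at day 30 only, where 10 of 30 measured genes were lower and 2 higher, against 3.07% and 19.4% of all genes. Acsm3 went from 428 to 1081, 2.52-fold higher (2.38 to 2.68), and Pdk4 from 2.09 to 26.1, 12.5-fold higher (6.71 to 24.8). Acadm (1315 and 1307) did not differ beyond its interval, and Slc27a2 (1743 and 2581) and Ehhadh (79.2 and 153) were higher by less than 2-fold. In early cells Acsm3 ran the other way, from 110 untreated to 19.4 at day 30.

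**Figure D4:**
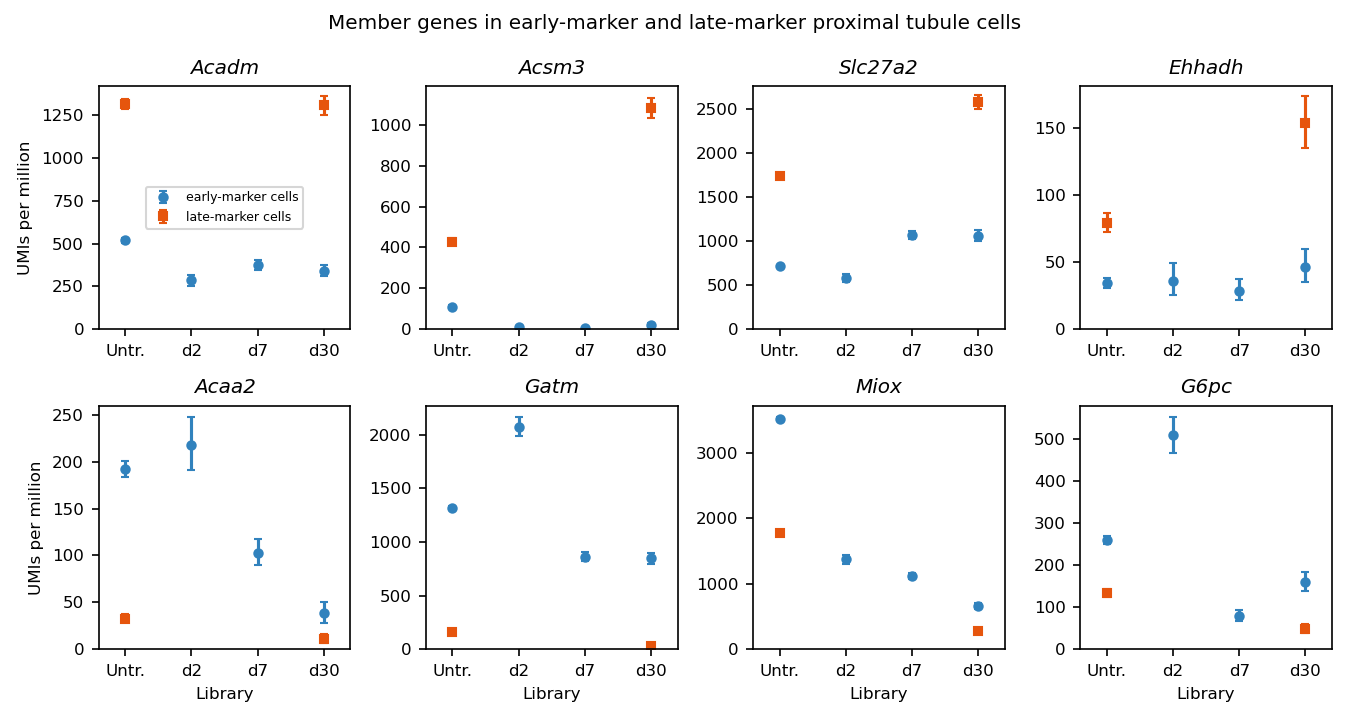
Level of 8 genes in early-marker and late-marker proximal tubule cells by library, in CPM on linear axes, with exact 95% intervals. Late-marker cells are drawn for the untreated and day 30 libraries only. Acsm3 is higher in late cells at day 30 (1081) than untreated (428), and Miox is lower in both populations.

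The wider pathways were counted in the same proximal tubule cells at day 7, from lists that, like the set, were chosen with earlier results known. In this comparison 9.4% of all measured genes were lower and 35.7% higher. Of 23 measured other fatty acid oxidation genes, 12 were lower and 0 higher, among them Acad10 (ratio 0.161) and Acat1 (0.260). Among 10 genes of fatty acid uptake, storage and ketone use, 6 were lower, led by the fatty acid receptor Cd36 (0.121), Acss1 (0.128) and Oxct1 (0.218), and 3 were higher, Angptl4 (4.20), the lipid droplet protein Plin2 (2.33) and Fabp5 (2.25). Of 13 regulators, 6 were lower, led by Klf15 (0.111), Sirt3 (0.260) and Esrra (0.335), and Creb1 was higher (2.42). Other gluconeogenesis genes were lower in 5 of 16, led by the pyruvate carboxylase Pcx (0.113), and higher in 2, among them Ldhb (3.23). Genes of fructose, inositol, arginine and creatine use other than the members were lower in 10 of 16, led by Dcxr (0.129), with Arg2 higher (17.1). Of 10 measured glycolysis genes, 4 were higher and 0 lower, led by Hk2 (276, interval 76.0 to 2291, from 2 untreated UMIs), Hk1 (6.70) and Pkm (4.71). The shares of higher genes among the uptake and glycolysis lists were near that of all genes.

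Thick ascending limb cells (575, 439, 68 and 290 in time order) are given beside endothelium, because free RNA can add counts to any cell. In untreated endothelium the 30 genes made up 0.431% of UMIs, against 0.390% in untreated thick ascending limb cells. Acsm2, a proximal tubule enzyme that endothelium should lack, was at 952 CPM in endothelium and 452 in the limb. In endothelium after IRI the share was 0.0684% at day 2 and 0.0842% at day 30. Taken at face value, 16 of 25, 14 of 23 and 15 of 24 measured genes were lower in the limb at days 2, 7 and 30, where 10.4%, 7.52% and 7.7% of all measured genes were, and 2, 0 and 1 were higher, where 12.4%, 21% and 22.7% were. The 9 genes below both endothelium and pericytes in the untreated library (Slc27a2, Acsm2, Acsm3, Pck1, Fbp1, Khk, Gatm, Miox and Ass1) were lower at all 3 times. Whether endothelium and pericytes make some of them, such as Ass1, was not tested. The part of free RNA in these falls was not tested.

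A second group of 8 genes stood above both of those cell types in the untreated limb: Ppargc1a, Cpt1a, Acadm, Acadl, Acadvl, Hadha, Hadhb and Acaa2. Of these, 5, 3 and 2 were lower on days 2, 7 and 30 in turn, and 0 were higher, where 10.4, 7.52 and 7.7% of all measured genes were lower. The 8 genes were chosen by their untreated limb counts, which are also the base of these ratios. That choice favours lower over higher calls. Ppargc1a (chr5:51454250-51567726) was at 308 CPM before injury and 77.3, 117 and 178 CPM on days 2, 7 and 30, against 57.0 in untreated proximal tubule. It was 3.98-fold lower (3.60 to 4.41), then 2.62-fold (2.26 to 3.06), then 1.73-fold (1.57 to 1.91), the last within the rule. Acadvl was at 179, 66.7, 65.2 and 51.3, and Hadhb at 234, 103, 111 and 105, and both were lower at every time. Pdk4 was higher in the limb at day 2 (4.68 to 31.4, 6.72-fold, 4.39 to 10.7) and day 30 (24.4), and Slc25a20 at day 2 (13.2 to 27.1, 2.04-fold, 1.54 to 2.74). Endothelium had 2.03 for Pdk4 at day 2. With 30% of the library mean profile subtracted, 14, 12 and 13 genes were still measured in the limb, and 4, 3 and 2 of them were lower, against 9.79, 6.64 and 6.17% of all measured genes.

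In the other tubule segments, 3 genes chosen after their values were seen are given with the level in endothelium beside them. Untreated endothelium had 23.4 CPM of Ppargc1a and 89.0 of Acaa2, and 5.68 and 56.0 on day 2. Ppargc1a was at 286 CPM in untreated thin limb cells and 42.8, 49.8 and 81.3 on days 2, 7 and 30, lower by 6.68-fold (4.68 to 9.81), 5.74-fold (4.61 to 7.18) and 3.52-fold (2.77 to 4.49). In principal cells of the collecting duct it was at 208 untreated, 88.2 on day 2 and 102 on day 30, whereas in intercalated cells it was at 216.5, 163 and 203, within 2-fold of untreated. Acaa2 reached 509 in untreated principal cells, more than in proximal tubule, and 111 and 250 on days 2 and 30, lower by 4.58-fold (4.15 to 5.05) and 2.04-fold (1.82 to 2.30). Slc25a20 was higher in intercalated cells, at 9.72 untreated and 32.9 and 41.0 on days 2 and 30, ratios of 3.38 (2.28 to 4.96) and 4.21 (2.89 to 6.09), from 79, 43 and 49 UMIs. Endothelium had 13.4 CPM of it untreated and 18.7 and 18.1 on those days. Under 50 collecting duct cells of either kind were gated at day 7, so that library is not given for them.

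**Figure D5:**
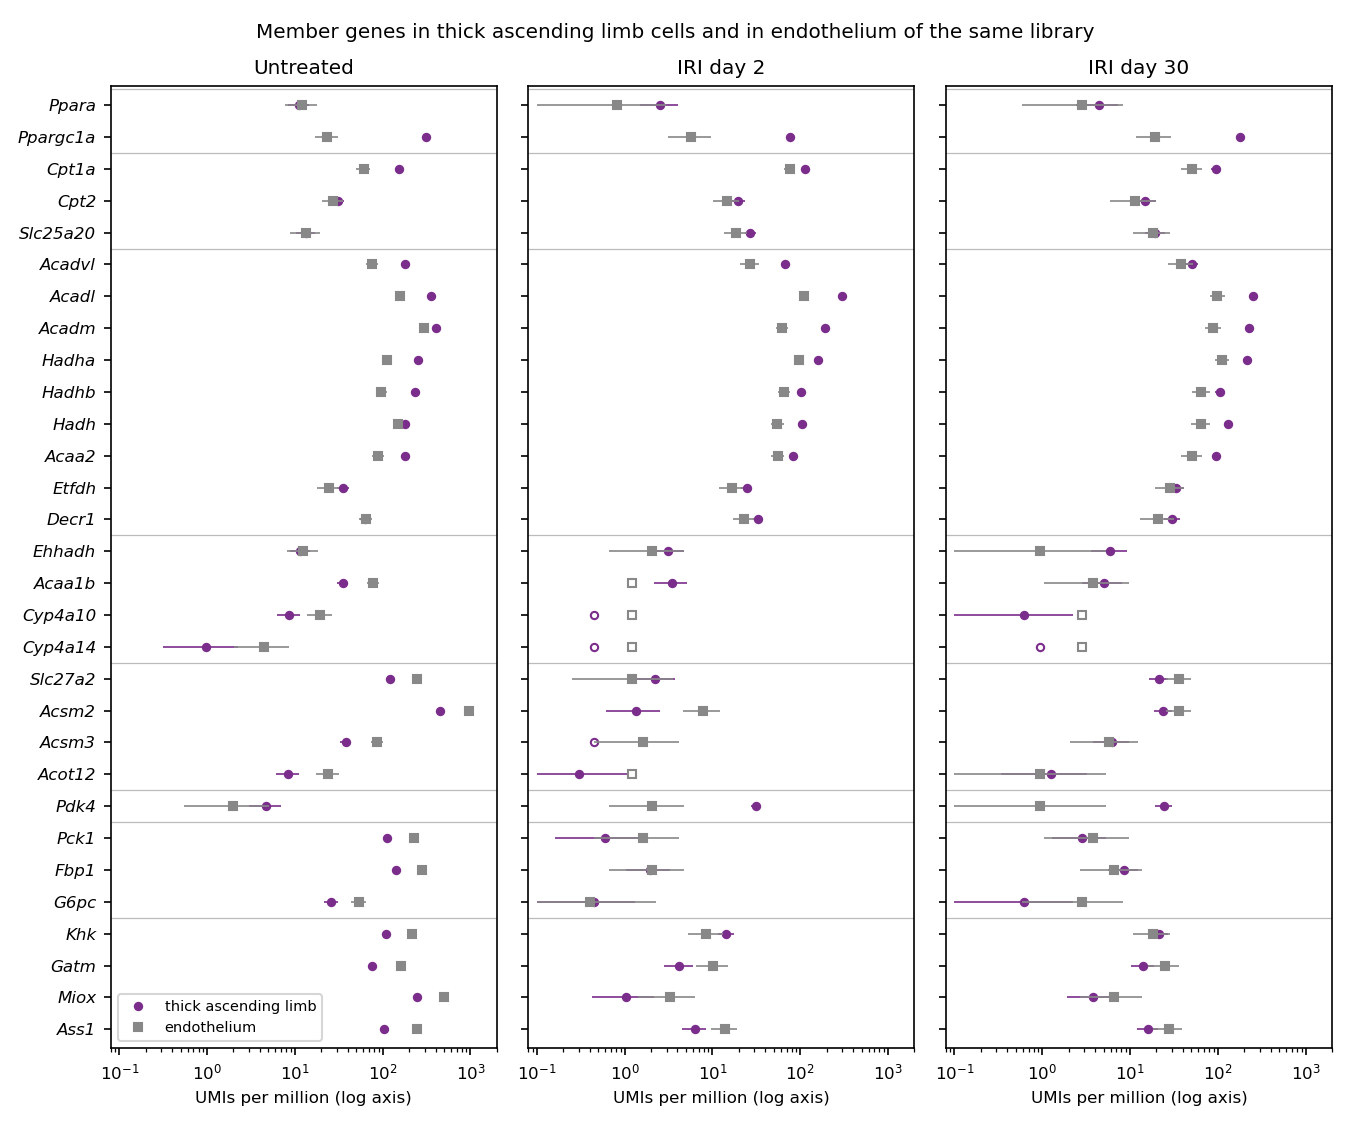
Level of each gene in thick ascending limb cells and in endothelium of the same library, in CPM on a log axis, for the untreated, day 2 and day 30 libraries, with exact 95% intervals and open symbols for 0 UMIs drawn at the floor of 3 counts. In the untreated panel Acsm2, Miox, Pck1 and Fbp1 are higher in endothelium than in the limb, and Ppargc1a is higher in the limb.

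Markers of immune cells also moved with the groups. The 11 macrophage markers summed to 8.09 CPM in untreated proximal tubule cells and 827, 731 and 963 at days 2, 7 and 30, against 25.35 in untreated endothelium and 1564 and 1838 there at days 2 and 30. The 7 neutrophil markers summed to 89.4, 2156, 150 and 110 in proximal tubule cells, and to 7110 in endothelium at day 2. In each library with both values they were lower in proximal tubule cells than in endothelium, apart from the neutrophil list in the untreated (18.4 in endothelium) and day 30 (33.3) libraries. Their part in the results was not tested.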

How the data were processed

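The deposited files are 4 matrices of raw counts of UMIs per gene and barcode, which the authors made with Cell Ranger 7.0.1 on mm10, per the submitters' processing notes, whereas version 3.0.1 stands in the matrix headers. Which annotation release and cell-calling rule they used is not stated in those sources. Cells were kept with at least 500 UMIs, 300 genes and at most 50% mitochondrial UMIs, using Python 3.11.15, numpy 2.4.6, scipy 1.17.1 and pandas 2.3.3. Segments were gated on 14 competing marker lists holding none of the 30 genes: the best list needed a score of 0.1, 3 markers, and 1.5 times the runner-up, and the injury gate also needed a transport score of 0.03. No doublet caller was run. The 1.5 times rule leaves out cells in which the best list and the runner-up score closely, and mixed cells that met the rule were kept. The transport and injury lists of the proximal tubule were not held to this rule against each other, so cells mixing them were kept. Gate thresholds were set after marker levels had been seen, and the genes and lists were chosen with earlier results of these data known. Counts were summed per gate and library and scaled to 1000000. Exact Poisson and ratio intervals cover counting error only. All 30 genes are named; pathway lists give up to 3 genes per direction by ratio, and some list genes are not reported here. Coordinates are from GENCODE M21 (GRCm38, mm10) and promoters from RefSeq. The scripts were tested on simulated data. Tried alternatives are listed at the end.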

Additional observations from a re-analysis of the deposited data

Results flagged for a closer look

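Ratios to untreated on opposite sides of 1 were found for 3 genes in different parts of the tubule, and the differences themselves were not tested, since each library is 1 sample. G6pc at day 2 against untreated had a ratio of 2.32 in proximal tubule cells and 0.0173 in thick ascending limb cells. Gatm at day 2 had a ratio of 2.46 in proximal tubule cells and 0.0553 in thick ascending limb cells. In the untreated limb both genes were below their level in endothelium, at 25.9 and 75.8 CPM against 53.2 and 160, so the limb ratios are not shown to be changes in limb cells. Acsm3 at day 30 had a ratio of 0.176 in early-marker and 2.52 in late-marker proximal tubule cells.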

How the results depend on the processing

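Of 1272 single-gene values under the alternatives, 654 stayed within the spread allowed, 616 moved beyond it and 2 reversed: G6pc at day 2 (0.951 with all cells that had a proximal list on top) and Gatm at day 7 (1.02 in transport-marker cells). The cause was not tested. In proximal tubule cells at day 2, where 8 genes were lower and 2 higher, median scaling gave 0 higher, subtraction of 30% of the library mean 5 lower and 4 higher, the mean over cells 5 lower, the 1.5-fold rule 14 and 5, the 3-fold rule 1 and 0, early-marker cells 5 and 0, and all cells with a proximal list on top 17 and 1. At day 7 (19 lower, 0 higher), no filter, the subtraction and the 1.5-fold rule each gave 1 higher, transport-marker cells 9 lower and early-marker cells 8 lower. At day 30 (15 lower, 0 higher), no filter, the stricter gate, the 1.5-fold rule and early-marker cells each gave 1 higher, late-marker cells 2 higher, and transport-marker cells 7 lower and 4 higher. In the thick ascending limb, the higher count at day 2 was 1 without mitochondrial genes, 1 with median scaling and 1 with the subtraction, and at day 30 it was 2 among cells above the day 7 floor. The subtraction left 14, 12 and 13 genes measured and 4, 3 and 2 of them lower, and the 8 genes above endothelium and pericytes gave 5, 3 and 2 lower with 0 higher. The 6 settings for early-marker, late-marker and proximal-list cells, for the 8 genes, for the injury gate and for deep cells were added after the data were seen. No paired analysis was possible because each group has 1 library.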

Other observations

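Some of the 30 genes also had levels outside the tubule that exceeded those of other cell types in the same library. Gatm was at 97.7, 153 and 118 CPM in macrophage-like cells at days 2, 7 and 30, against 10.2 and 24.7 in endothelium at days 2 and 30 and 25.0 in pericytes and fibroblasts at day 7. The ratios were 9.63 (6.51 to 14.9) to endothelium at day 2 and 4.77 (3.25 to 7.32) at day 30. Slc25a20, the carnitine carrier, was at 77.7 CPM in neutrophil-like cells at day 2, 4.16 times (3.10 to 5.71) its level in endothelium. Acaa1b, the peroxisomal thiolase, was at 145, 162 and 120 CPM in urothelium-like cells of the untreated, day 2 and day 30 libraries. Macrophage-like cells had 0.491 and 2.43 CPM of it at days 2 and 30, and endothelium had 78.5 CPM untreated and 0 UMIs at day 2.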
